A study of Mus musculus with 6 samples.

Results

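The effect of a miR-26 sponge on the transcriptome of pre-B cells was measured in the mouse line 1676, a cell line grown out of bone marrow of SLP-65-/- LAT-/- mice and halted at the pre-B cell stage. A comparison of the miR-26 sponge with the control vector uses 4 of the 6 arrays of the series, chosen by their labels alone: 2 arrays of cells with an empty control vector and 2 arrays of cells with a vector for the miR-26 sponge. All 4 cultures lacked the adaptors SLP-65 and LAT, had been infected with a retroviral vector and selected with puromycin, and were kept in an excess of IL-7 supplied as supernatant of IL-7-producing J558L cells. Each array of the sponge was set against the control array with the same experiment number, and both experiments used their own cell clones, so clone and experiment cannot be told apart. The other 2 arrays held RNA of cells that overexpress miR-26a (the human hairpin hsa-miR-26a-2) under the same conditions, and their values stand beside some results. They were compared with the same control arrays, and the limits on signal given below were not applied to them. The control vector is empty and no array of a scrambled sponge is used here, so expression of a sponge RNA and capture of miR-26 cannot be told apart. The mature microRNAs themselves were not measured.

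MicroRNAs guide Argonaute proteins to messenger RNAs that pair with their seed, a short stretch near the 5′ end, and lower the stability and translation of these messages. The miR-26 family has 2 mature members with a common seed, miR-26a and miR-26b, which lie in introns of the phosphatase genes Ctdspl, Ctdsp2 and Ctdsp1. A sponge is a transcript with a row of binding sites that competes with natural targets for the microRNA, and targets of a captured microRNA should rise. In B cell precursors, microRNAs tune the balance between IL-7-driven expansion and differentiation.

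The mature microRNAs and the complement of miR-26a are shown here because array probes that resemble the complement gave the largest differences. The mature sequences come from RefSeq (GRCm38.p6), with the seed, bases 2 to 8, in capitals. The same miR-26a is encoded by Mir26a-1 on chr9:119031811-119031832 and by Mir26a-2 on chr10:126995543-126995564, and miR-26b by Mir26b on chr1:74394324-74394344, each on the plus strand. In the complement of miR-26a, written as DNA, capitals mark its first 10 bases, which pair with the 3′ end of the microRNA. The site of the sponge itself was not used to choose or mark probes here. The methods of the study give one for its sponge mouse that departs from the complement in the centre.
mmu-miR-26a-5p: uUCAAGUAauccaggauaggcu
mmu-miR-26b-5p: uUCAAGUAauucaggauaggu
complement of miR-26a: AGCCTATCCTggattacttgaa

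Of the 55681 probes on the array, 19580 were above background and above a signal of 50 on all 4 arrays and were tested. They include 14758 probes with a gene name, for 10950 genes. Values are log2 of the quantile-normalised signal, called log2 levels here, and differences are sponge minus control on the log2 scale. The 4 arrays correlated at 0.996 to 0.998 over the tested probes, 28823 to 29800 spots per array were well above background in the series, and none was saturated. With 2 arrays per group, the number of arrays limits the precision, and the median standard error of a difference was 0.08.

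Most of the transcriptome differed little between sponge and control. The median difference was 0.01 with an SD of 0.17 over probes, and 17611 probes (89.9%) stayed within 1.2-fold. At an adjusted p under 0.05 (limma with the experiment as a block, Benjamini-Hochberg over all tested probes), 29 probes rose (0.148% of those tested) and 63 fell (0.322%). The rises measured 0.50 to 3.11 on the log2 scale. For the falls, the sizes lay between 0.50 and 1.43. The sponge arrays lay above both control arrays for 25 of the 29, and below both for 62 of the 63. Groups failed to overlap in this way for 17.9% and 19.8% of all tested probes. Both experiments moved 12890 probes (65.8%) in the same direction, with a correlation of 0.44 between their differences over probes, which share an array and are not replicates. The plot of both experiments' differences shows a compact cloud with few probes far from 0 in both.

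**Figure D1:**
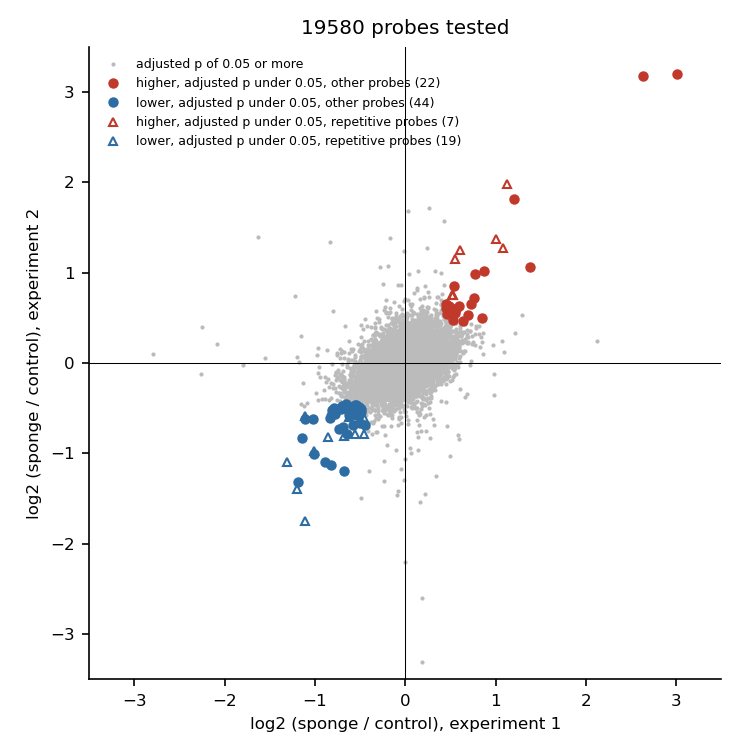
Difference between miR-26 sponge and control vector in experiment 1 (x axis) and experiment 2 (y axis), both as log2 ratios, for the 19580 tested probes. Red and blue symbols mark the 29 probes that rose and the 63 that fell at an adjusted p under 0.05, open triangles stand for repetitive probes, and the 2 red points near 3 on both axes are Bbs1 and a probe of no gene name.

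These calls rest on the pairing of arrays and on all 4 of them. Without the experiment as a block, 1 probe rose, that of Bbs1, and 0 fell, although limma then gave 443 higher and 795 lower at an unadjusted p under 0.05. With scaling to the 75th percentile in place of quantile normalisation, 316 probes rose and 413 fell. Leaving out each of the 4 arrays in turn, in a fit that takes in the miR-26a arrays, left 0 to 2 probes in each direction, where the fit of all 6 arrays had 2 that rose and 1 that fell. All 92 probes kept their direction in each alternative in which they were tested. Many alternatives, such as that without the block, keep the same log2 values and hence the same differences. In those the direction could not change, and the 92 were chosen for large differences in these arrays, so the kept direction is a weak check.

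The largest differences in listed signal belonged to probes that resemble the complement of miR-26a. Over all 55681 probes, 8 were listed more than 8-fold higher with the sponge in both experiments, with values at the scanner's floor taken as they stand, and each of the 8 shares at least 8 letters in a row with the complement printed above. This match was looked for after the values were seen. Such a stretch occurs in 669 probes of the array (1.2%). Against it, 2 probes were listed more than 8-fold lower with the sponge, and their longest shared stretches have 3 and 4 letters. With miR-26a against the same controls, 1 probe was that much higher and 7 were that much lower, none with 8 letters in common with the complement. Of the 2 probes on the array that hold the first 10 letters AGCCTATCCT in full, both are among the 8. Length of the match alone did not mark a rise. The other 7 probes that share at least 11 letters in a row, 0 of them with the first 10 in full, differed by -0.23 to 0.71 in listed signal. Some of these were not above background on any array, and both ends of the range come from such probes. Of those above background on every array, 4930579G22Rik differed by 0.31, Ptpla by 0.26 and NAP058670-1 by 0.004.

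The 8 probes are shown as 30-base windows, 5′ to 3′ as the array design gives them, with the stretch shared with the complement in capitals. For Bbs1, whose shared stretch runs 1 letter further, only the first 10 letters are marked. In the Jag1 window the capitals run on through a word that is also found in a probe of a long noncoding RNA interval on chromosome 6, shown with it. Positions of the full probes are those of the array design (mm9), and its names for genes and intervals are used, with no annotation of exons for that build used here.
Bbs1, chr19:4889160-4889219: cacaaaccccAGCCTATCCTgcacagtaaa
interval on chromosome 15, chr15:33984482-33984541: tagtcaaaaAGCCTATCCTGttaccatagg
interval on chromosome X, chrX:50098045-50098104: ttgggcctcgtAGCCTATCtccagaggggg
Vmn1r27, chr6:58165167-58165226: ttctgatgtatGCCTATCCcacaattagtc
Vmn1r6, chr6:56953150-56953209: gtgatgaatGCCTATCCcacaattactcct
AK086457, chr10:18516613-18516672: ctttgctatcaCCTATCCTctaggaataaa
Olfr324, chr11:58411462-58411521: tctgcgagctGCCTATCCTtctgcacctgt
Jag1, chr2:136907433-136907492: tagttgaaTACTTGAACCGTAaaatgtcca
interval on chromosome 6: ctacgcccTACTTGAACCGTAccaacgatg

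Bbs1 encodes a subunit of the BBSome, a coat complex of primary cilia, and its probe was the only one of the 8 above background on all 4 arrays. Its log2 level was 6.97 and 6.98 with the control vector and 9.98 and 10.19 with the sponge. The sponge arrays lay far above the controls in both experiments, with a rise of 3.11 (SE 0.09, adjusted p = 8.04e-06 by limma). With miR-26a the probe read 7.63 and 7.33. A second Bbs1 probe, which does not carry the word, differed by -0.03, with log2 levels of 7.90 and 8.07 in the controls and 7.98 and 7.93 with the sponge. So only 1 of the 2 probes for this gene rose.

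The other 7 probes were mostly at the floor of the scanner in control cells, so that their folds are lower bounds. Each bound sets the mean of the sponge arrays against the weakest signals counted as well above background on the control arrays. The probe for the chromosome 15 interval read 1.27 and 1.24 with the control vector and 8.80 and 9.40 with the sponge, at least 50.9-fold higher. The chromosome X interval read 2.18 and 1.42 in the controls and 8.88 and 9.37 with the sponge, at least 51.9-fold higher. In both, each sponge array lay above each control array, and the probes had been chosen by that rise. The bounds for these and for Vmn1r27 exceed 8-fold, whereas those given below for Vmn1r6, AK086457 and Jag1 do not.

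Vmn1r27 and Vmn1r6 encode vomeronasal receptors, and Olfr324 an olfactory receptor, families used by sensory neurons. The Vmn1r27 probe went from 1.32 and 1.35 to 6.60 and 7.07, at least 10.6-fold. The Vmn1r6 probe went from 1.30 and 1.32 to 6.03 and 6.35, at least 6.78-fold. For Olfr324 the controls read 3.60 and 3.68 and the sponge arrays 7.30 and 7.85, and since 1 control array was above background no bound is given. In these 3 receptor probes both sponge arrays stood above the control arrays, and the probes had been chosen by that rise. The controls of Vmn1r27 and Vmn1r6 were not above background, so their closeness measures no spread.

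The transcript AK086457 read 1.52 and 1.58 with the control vector and 5.81 and 6.07 with the sponge, at least 5.71-fold higher. Jag1 encodes a Notch ligand. Its probe read 1.41 and 1.39 in the controls and 4.95 and 5.61 with the sponge, at least 3.61-fold higher. The chromosome 6 interval, which missed the 8-fold limit in 1 experiment, read 1.48 and 2.72 in the controls and 5.39 and 5.49 with the sponge, at least 4.03-fold higher. The word of 13 letters that it shares with the Jag1 probe is found in no other probe, whereas the part TACTTGAA that belongs to the complement is found in 97 probes of the array. The same word of 13 letters arises where repeat units of the sponge mouse, as the methods print them, are set end to end. With that unit, the windows of the chromosome X interval and of AK086457 share letters beyond those in capitals.

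The 7 dim probes did not pass the limits on signal and have no test of their own. In a limma fit over all 55681 probes, which includes those at the floor, none of the 8 passed, Bbs1 included (adjusted p = 0.670). In that fit 0 probes passed in either direction, while 2002 were higher and 2128 lower at an unadjusted p under 0.05.

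**Figure D2:**
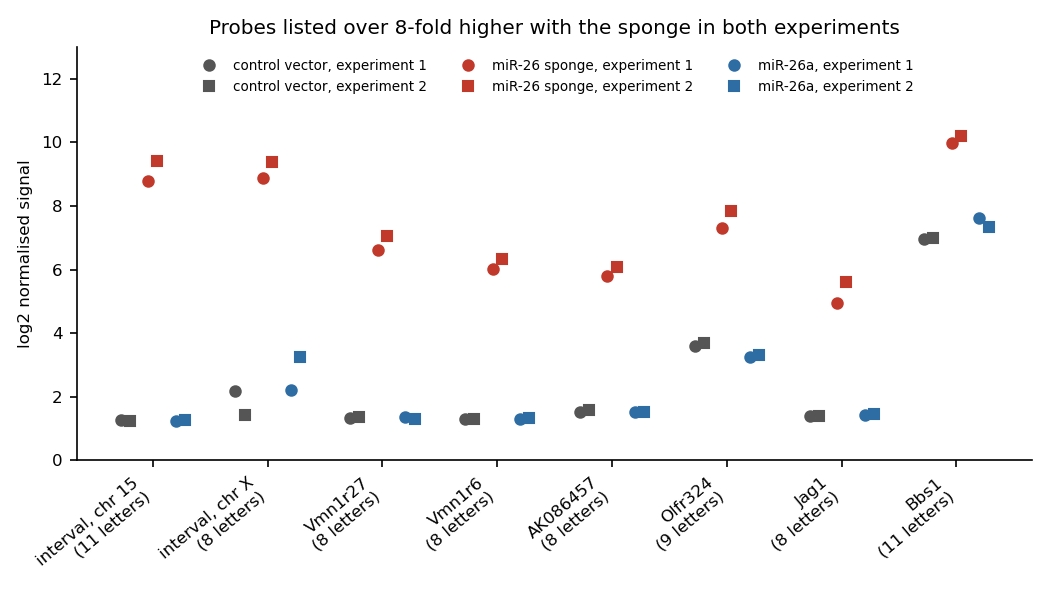
Log2 normalised signal (y axis) of the 8 probes listed more than 8-fold higher with the sponge in both experiments, floor values included as they stand (x axis, with the number of letters in a row shared with the complement of miR-26a), for every array of the series. Circles and squares are experiments 1 and 2; grey is the control vector, red the sponge and blue miR-26a, and in each probe both red symbols lie above the other 4.

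A near match to the first 10 letters, with 1 mismatch, also occurred without a rise. Among tested probes, 20 (0.102%) hold the first 10 letters with at most 1 mismatch, and 2 of these rose. The second of them, NAP059613-1, a probe of no gene name on chr13:12772644-12772703, begins as below, with the matching letters in capitals.
NAP059613-1: tAGCCTgTCCTcttggccacacccttttct
It read 6.67 and 6.62 with the control vector and 9.30 and 9.80 with the sponge, a rise of 2.91 (adjusted p = 0.000137, limma). Its log2 level was 6.63 on both miR-26a arrays. The remaining 18 probes differed by -0.40 to 0.27. Whether labelled RNA of the sponge itself binds the probes of this group was not tested.

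Among probes with a gene name, 16 rose and 33 fell. Fbxo17, an F-box protein that selects substrates for SCF ubiquitin ligases, read 6.83 and 6.65 with the control vector and 7.70 and 7.67 with the sponge. The rise was 0.94 (SE 0.08, adjusted p = 0.00539). Arhgap31, a GTPase activating protein, went from 6.53 and 6.36 to 7.23 and 6.89, a rise of 0.62 (adjusted p = 0.0430). In both genes the sponge arrays lay above the controls.

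Among genes of lymphocyte signalling, Pik3r3 rose. Pik3r3 encodes a regulatory subunit of phosphoinositide 3-kinase. It read 6.0 and 5.96 in the controls and 6.60 and 6.59 with the sponge (+0.61, SE 0.08, adjusted p = 0.0352). Both sponge arrays lay above both controls. With miR-26a and the shared controls, Pik3r3 differed by -0.69, at dim log2 levels of 4.97 and 5.615 with miR-26a. With the trend in probe GC content removed, its difference was 0.63 and the adjusted p 0.0865 (limma).

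Transcription factors were also found among the rises. Maf, a leucine zipper factor, read 5.80 and 6.39 in the controls and 6.53 and 7.04 with the sponge (+0.69, adjusted p = 0.0200). It differed by -1.14 with miR-26a, at dim log2 levels of 4.34 and 5.58. Glis2, a zinc finger factor, rose by 0.58 (adjusted p = 0.0430). For Maf and Glis2 the groups did not overlap. Dbt, the E2 component of the branched-chain keto acid dehydrogenase complex, and Xpo7, a nuclear transport receptor, each rose by 0.55. The RIKEN transcript 4930415F15Rik rose by 0.53.

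Malat1, an abundant nuclear noncoding RNA, rose by 0.56 (adjusted p = 0.0437) with overlapping groups, since it read 9.08 and 9.71 in the controls and 9.57 and 10.34 with the sponge. In each experiment alone the sponge array was the higher one. Its probe lies on chr19:5795713-5795772, within an interval that the array covers with 20 tested probes, chr19:5771425-5848475. Of these, 13 were above 0 and 2 rose. A second probe of exactly the same sequence, listed as NEAT2, another name of this RNA, read 9.20 and 9.72 in the controls and 9.40 and 10.06 with the sponge, a difference of 0.27 (adjusted p = 0.142). Of the 29 sequences that 2 tested probes share, the paired differences were apart by a median of 0.11. Neighbouring probes up to position 5795892 differed by 0.36 to 0.52, and those further along, up to position 5802326, by -0.19 to 0.02. The other probe that rose lies on chr19:5845052-5845111 at the far end of the interval, read 9.71 and 9.59 in the controls and 10.92 and 11.40 with the sponge, and rose by 1.51 (adjusted p = 0.00548). A probe that overlaps it by most of its length differed by 0.23. Neat1 and its probes differed by -0.06 to 0.19.

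Some falls belonged to genes known from leukocytes or from general cell functions. Cnr2, the cannabinoid receptor of lymphocytes, read 9.47 and 9.86 with the control vector and 8.57 and 8.76 with the sponge, a fall of 1.00 (SE 0.09, adjusted p = 0.00539), and 9.65 and 9.68 with miR-26a. Its groups did not overlap. Stam, an adaptor that binds JAK kinases and sorts receptors at endosomes, went from 8.18 and 8.28 to 7.68 and 7.73 (-0.53, adjusted p = 0.0439). The leukocyte transcript Lst1 fell by 0.54 (adjusted p = 0.0437). Stam and Lst1 both kept sponge arrays below control arrays.

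Other falls came from genes known from other tissues. Sun5, a nuclear envelope protein of sperm, read 8.78 and 9.07 in the controls and 7.77 and 8.06 with the sponge (-1.01, adjusted p = 0.00329). Cdh26, a cadherin, read 9.10 and 9.04 in the controls and 8.27 and 8.43 with the sponge (-0.72). Tas2r113, a bitter taste receptor, fell by 0.67, and Serpina3b, of the serine protease inhibitor family, by 0.58. The membrane protein Tmem119 read 10.23 and 10.02 in the controls and 9.54 and 9.53 with the sponge (-0.59), and 10.84 and 10.58 with miR-26a. Zfp790 and the predicted gene Gm15421 fell by 0.59 and 0.70.

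**Figure D3:**
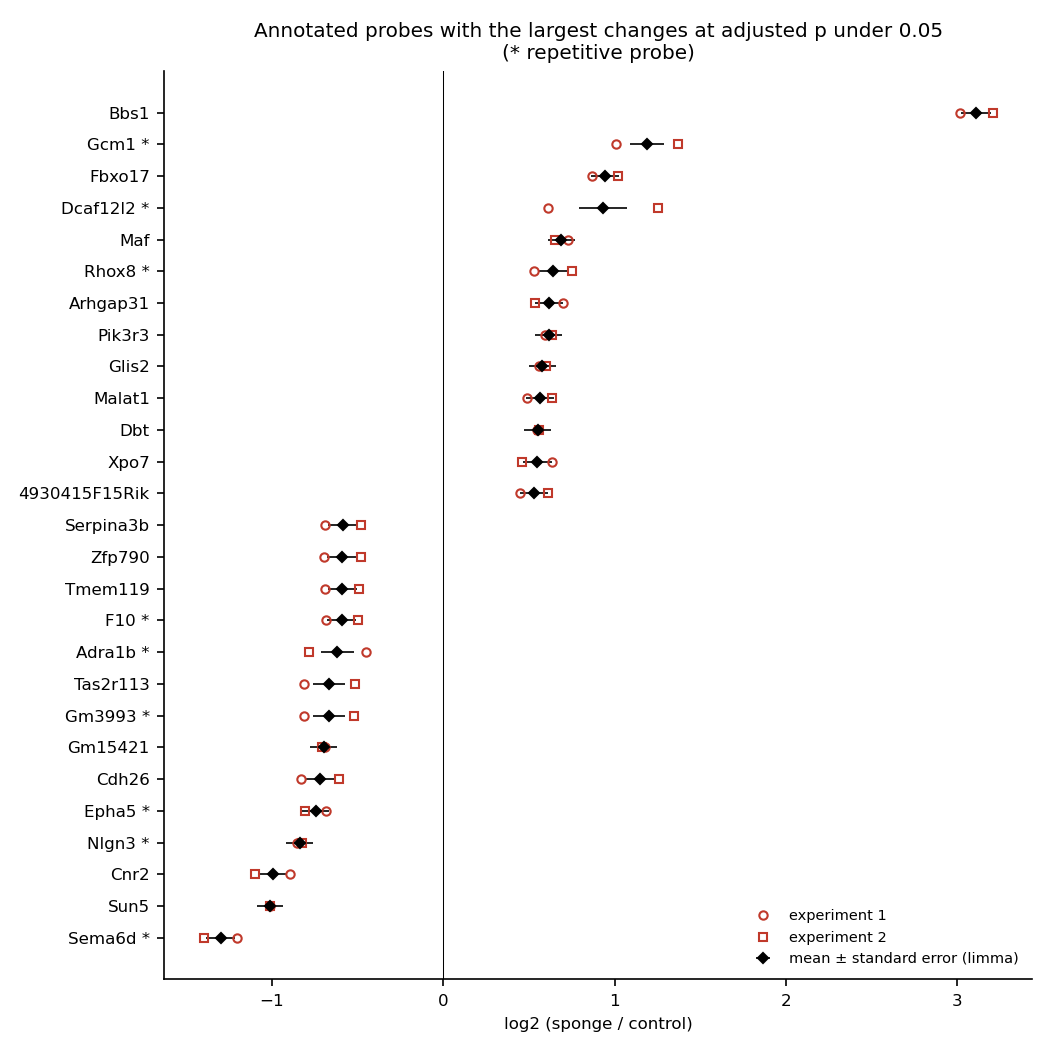
Log2 ratio of sponge to control (x axis) for 13 of the 15 largest rises and 14 of the 15 largest falls among probes with a gene name at an adjusted p under 0.05 (y axis). Open circles and squares are experiments 1 and 2, black diamonds the mean with its standard error from limma, and an asterisk marks a repetitive probe; Bbs1 stands apart at 3.11, and the next rise, Gcm1, is at 1.19.

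Other probes of the same genes did not pass the threshold. The 30 largest rises and falls among named probes and the 8 further genes with the largest differences at an unadjusted p under 0.05 make 38 genes, of which 11 have other tested probes. These 16 probes differed by -0.35 to 0.31, and 0 had an adjusted p under 0.05 by limma. The other 27 genes have no second tested probe. Among the 8 further genes, which passed only the unadjusted threshold, Syt10 measured 1.00, Pura 0.86, Serpinb9c 0.77, Bgn 0.76 and Sec24a 0.70. Zfp599 measured -1.10, Tox4 -0.77 and 2610019E17Rik -0.75. The experiments differed widely in most of these. In experiments 1 and 2, Syt10 measured 0.43 and 1.57, Pura 0.02 and 1.69, Bgn 0.24 and 1.28, Sec24a 0.40 and 0.99, and Serpinb9c 1.21 and 0.33. Tox4 measured -0.24 and -1.31, and 2610019E17Rik -0.08 and -1.41. For Zfp599 the value rests on experiment 2, with log2 levels of 6.12 and 8.11 in the controls and 6.11 and 5.91 with the sponge.

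Repetitive probes made up a larger share of the calls than of the array. A probe is called repetitive here when it holds a run of at least 15 pyrimidines, a simple repeat of at least 18 bases, or a word of 16 bases found in probes of 5 or more other gene names. This applied to 7 of the 29 rises (24.1%), to 19 of the 63 falls (30.2%) and to 1031 of all tested probes (5.27%). The rises of Gcm1, Dcaf12l2 and Rhox8 and the falls of Sema6d, Nlgn3, Epha5, Gm3993, Adra1b and F10 are of this kind. Gcm1, a transcription factor of the placenta, read 10.63 and 11.07 in the controls and 11.64 and 12.44 with the sponge (+1.19, adjusted p = 0.00527). Sema6d, an axon guidance protein, read 10.02 and 10.03 in the controls and 8.82 and 8.63 with the sponge (-1.30, adjusted p = 0.00184). The other tested probes of Gcm1 differed by -0.04 and 0.31, and those of Dcaf12l2, Rhox8 and Epha5 by -0.35, -0.12 and 0.20.

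Repeats of the triplet GAA went both ways. The 52 tested probes with at least 5 copies in a row (0.266%) held 6 of the rises and 4 of the falls, and their differences spanned -1.2 to 1.56 with an SD of 0.54, against 0.17 over all probes. In 14 of the 52 the experiments had opposite signs, which is no more often than over all tested probes, of which 65.8% had the same sign in both. These probes also differed between experiments within a group, since 46 of 52 were higher in control experiment 2 than in control experiment 1, and 50 of 52 in the sponge arrays. A probe that fell by 0.99 and one that rose by 1.56, neither with a gene name, show how alike such probes are.
A_55_P2082841: GAAGAAGAAGAAGAAGAAGAAGAAgagaaa
A_55_P2028847: AAGAAGAAGAAGAAGAAGAAGAAGAAGAAG

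Runs of pyrimidines leaned towards lower values with the sponge. Of the 229 tested probes with a run of at least 15 letters C or T, 174 were below 0. By limma 8 of them fell and 0 rose, against 0.322% and 0.148% of all tested probes, so the 0 rises say little. The median of the 229 was -0.18, with -0.25 in the first experiment and -0.13 in the other. It was -0.04 for miR-26a and the same controls. In the 43 probes with more than 20 such letters the median reached -0.32. The windows below, from probes that fell by 0.62 (Adra1b, an adrenergic receptor) and 0.55 (Igsf9b, an immunoglobulin superfamily protein), have the run in capitals.
Adra1b, chr11:43589067-43589126: ttaagTCTCTCTCTCTTCTCTCTCTgtata
Igsf9b: ttgTTTTCCTTCCTTCCTTCCTCTCCCTag

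The differences also followed the GC content of the probes. Over all tested probes the log2 difference fell by 0.07 for every 10 percentage points of GC, with a correlation of -0.29 across probes. The slope was -0.09 in experiment 1 and -0.05 in experiment 2. The median ran from 0.09 in probes of at most 30% GC to -0.19 above 60% GC. Between the control arrays of both experiments the slope was 0.001, and between the sponge arrays 0.04. The probes that rose had a median GC content of 36.7%, those that fell 45%, and all tested probes 43.3%. After removal of the trend, 8 probes rose and 9 fell. Those with a gene name were Bbs1, Gcm1 and Fbxo17 among the rises, and Sema6d, Sun5, Cnr2, Nlgn3 and Gm15421 among the falls. The part of labelling or hybridisation in these trends was not tested.

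**Figure D4:**
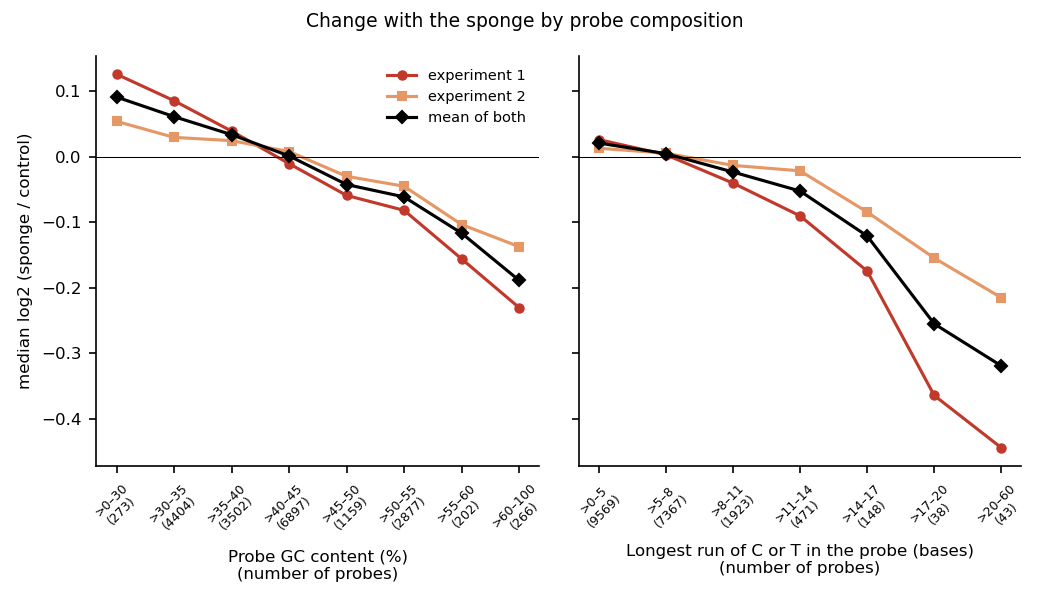
Median log2 ratio of sponge to control (y axis) against probe GC content in percent (left) and the longest run of C or T in bases (right), with the number of probes in each bin in parentheses. Red circles are experiment 1, orange squares experiment 2 and black diamonds the mean of both; each line falls from left to right, from 0.09 to -0.19 on the left and from 0.02 to -0.32 on the right for the mean.

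The question the sponge was built for is whether miR-26 targets rise. In a list of 24 targets known from other work, 15 genes were tested, and 0 of the 15 passed an unadjusted p under 0.05 by limma, where 8.89% of all annotated genes passed it upwards and 8.12% downwards. Their differences spanned -0.08 to 0.10 with a median of 0.04, against 0.02 over all annotated genes and -0.19 for the same genes with miR-26a. Hmga1, a chromatin protein of growing cells, read 16.73 and 16.80 in the controls and 16.83 and 16.86 with the sponge (+0.08, SE 0.08), against -0.69 with miR-26a. Adam17, a membrane-bound protease, read 8.19 and 8.14 in the controls and 8.39 and 8.12 with the sponge (+0.10, SE 0.09). Map3k2, a kinase of the MAP kinase cascade, differed by 0.07. For these 3 genes the difference was close to its standard error, and differences of that size were not detectable with 2 arrays per group.

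The genes that host the microRNAs moved as little. Ctdsp2 read 9.79 and 9.67 in the controls and 9.61 and 9.65 with the sponge (-0.10, adjusted p = 0.539), against -0.70 with miR-26a. Ctdspl, read by a repetitive probe, differed by -0.04 and Ctdsp1 by -0.01. The signs of these small differences changed under some settings. Among 24 tested genes of microRNA processing and silencing the median was -0.01. Cnot4, of the CCR4-NOT deadenylase, measured 0.33 and Tnrc6a, a scaffold of the silencing complex, 0.32, both short of an adjusted p of 0.05 (0.0981 and 0.102).

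Probes that themselves hold a seed match were examined next. Words were searched in the probe as printed, on that strand only. The shortest, ACTTGA, pairs with bases 2 to 7 of miR-26, and each longer word contains it and may overlap the others. Of all tested probes, 393 (2.01%) hold ACTTGA, with a median difference of 0.04, against 0.01 in the 19187 probes without it. The median was 0.06 in the 147 probes with ACTTGAA (0.751%). In the 87 probes with the word TACTTGA (0.444%) it was 0.08, and in the 37 with the full word TACTTGAA (0.189%) it was 0.10. With the GC trend removed, the probes with TACTTGAA had a median of 0.06. Their median with miR-26a was -0.25. Probes with the words are poorer in GC, with medians from 35% to 40% against 43.3%. The words also lie at the end of the complement printed above and of the sponge mouse's site, and the Jag1 probe holds TACTTGAA. Release of targets and binding of labelled sponge RNA to such probes cannot be told apart in these medians.

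Among the 393, 0 rose and 1 fell, the Stam probe described above, while 62 were higher and 28 lower at an unadjusted p under 0.05. Over all tested probes these unadjusted shares are 9.29% and 9.83%. A probe covers a short part of its transcript, so the words say nothing of sites elsewhere in it. The strongest on each side are shown with the word in capitals.
Sec24a: agatcttccagaACTTGAtacaccagaatc
Ubtd2: gattggatcaaTACTTGAtgtgtatcattt
Adam19: tctatgcaaaaTACTTGAAtgggccatggt
Stam: actcttcagttTACTTGAgtttaaagtatg
Sdad1: tttcagctattcACTTGAttcatgatcccc
noncoding RNA interval on chromosome X: tctttatgtttggctaACTTGActgtgtcc
Sec24a, of the COPII vesicle coat, measured 0.70 from log2 levels of 5.94 and 5.93 in the controls and 6.34 and 6.92 with the sponge. Ubtd2, a ubiquitin-like domain protein, measured 0.59, and the metalloprotease Adam19 0.58. Sdad1, needed for ribosome assembly, measured -0.51 and the interval -0.47. None of these 5 had an adjusted p under 0.05. Adam19 is a repetitive probe.

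Signalling genes of the pre-B cell were examined by role. The pre-B cell receptor list, whose products pass the signal from the receptor to Syk and Btk, had 16 tested genes with a median of -0.07. None passed the adjusted threshold, and 3 were lower at an unadjusted p under 0.05, against 8.12% of all annotated genes. Syk, the kinase at the receptor, read 14.80 and 14.86 in the controls and 14.42 and 14.74 with the sponge (-0.25, adjusted p = 0.191). Btk measured -0.20 and the adaptor Pik3ap1 -0.24. For all 3 the sponge arrays lay below the controls, as they did for 4 of the 16 and for 18.1% of all annotated genes. The transcripts of the deleted adaptors were detected in every array, with Blnk, which encodes SLP-65, at 15.37 and 15.60 in the controls and 15.60 and 15.59 with the sponge. Lat differed by 0.03. Where these probes lie relative to the deleted parts is not given in the sources used here, so they check nothing.

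IL-7 signals through JAK1, JAK3 and STAT5. Of 17 tested genes of this pathway none passed the adjusted threshold, and the median was -0.06. Jak3, the kinase bound to the common gamma chain, came closest, at 10.06 and 10.29 in the controls and 9.63 and 9.72 with the sponge (-0.50, adjusted p = 0.0520). Its groups did not overlap. Socs3, a feedback inhibitor of JAK signalling, read 8.23 and 8.18 in the controls and 8.57 and 8.35 with the sponge (+0.25), against -0.69 with miR-26a.

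The PI3K and AKT list had 30 tested genes, of which Pik3r3 alone rose and 0 fell. Pik3r2, another regulatory subunit, read 10.90 and 10.92 in the controls and 10.42 and 10.61 with the sponge (-0.40, adjusted p = 0.0743). Pik3cg, the catalytic subunit gamma, measured -0.30. Genes responsive to FOXO factors, which PI3K signalling holds in check, numbered 20, with a median of -0.05. Ccr7, a homing receptor, measured 0.25 against -2.50 with miR-26a, where it was dim (4.59 and 4.73). Gadd45b, a stress-induced growth regulator, measured -0.38. The list thus held members on both sides, 8 above and 12 below 0.

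Genes of pre-B differentiation, 24 in all, had a median of -0.09, with -0.14 in experiment 1 and -0.01 in experiment 2. None passed the adjusted threshold. Cd22, an inhibitory coreceptor, measured -0.30, Sfpi1, which encodes the factor PU.1, -0.27, and Tcf12, an E protein, 0.26. The Cd22 probe is repetitive. Class II genes of the major histocompatibility complex, 8 in all, had opposite medians in the experiments, -0.20 and 0.23, while their median with miR-26a was -1.66. With miR-26a, H2-Aa was dim (3.59 and 5.43), whereas H2-Oa read 6.79 and 7.29.

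Among cell cycle lists, Skp2, which marks the inhibitor p27 for degradation, read 11.38 and 11.32 in the controls and 11.72 and 11.58 with the sponge (+0.30, adjusted p = 0.113), against -1.48 with miR-26a. The median was -0.05 over 25 genes of G1 control, 0.00 over 36 of DNA replication and -0.07 over 28 of mitosis. In the BCL2 family of 15 genes, the death inducer Bbc3 measured 0.30 and Bad -0.21. No member of these 4 lists rose or fell.

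The lowest median of all larger lists belonged to the replication-dependent histones, the core proteins of new chromatin. Over 41 genes it was -0.18, with -0.24 in experiment 1, -0.06 in experiment 2 and 0.00 for miR-26a. At an unadjusted p under 0.05, 16 were lower and 1 higher, against 8.12% and 8.89% of all annotated genes, and none passed the adjusted threshold. Hist1h4j read 13.39 and 13.42 in the controls and 12.55 and 13.01 with the sponge (-0.63, adjusted p = 0.0564). Sponge arrays lay below the controls in 17 of the 41 and above in 0, where 18.1% of all genes lay below. The probes of these histones are rich in GC, with a median of 51.7%, and without the GC trend their median was -0.12. Histone genes also have near-identical copies, so probes may share targets.

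At the other end stood genes of the hypoxia response, with a median of 0.13 over 16 genes and of 0.10 without the GC trend. Here 3 of the 16 were higher at an unadjusted p under 0.05, against 8.89% of all annotated genes, namely Car12 (+0.48), Ndrg1 (+0.29) and Pfkfb3 (+0.20), and none passed the adjusted threshold. The sponge arrays lay above the controls in 7 of the 16, Car12 not among them, against 19.5% of all genes. Heat shock genes, 13 in number, had a median of 0.10, with 0.05 without the GC trend. F-box proteins, 47 genes, had 9 higher and 2 lower at the unadjusted threshold (8.89% and 8.12% over all annotated genes), with Fbxo17 as the single rise. Fbxo2 measured 0.39 and Fbxo10 0.37, and the median was 0.05.

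Large housekeeping groups lay near 0. The median was 0.02 over 82 cytosolic ribosomal proteins, 0.04 over 76 mitochondrial ones, 0.03 over 80 respiratory chain subunits and 0.02 over 37 proteasome subunits. It was 0.04 over 265 zinc finger genes of the Zfp series and 0.05 over 150 solute carriers. In all, 38 of 40 lists had tested members. Pik3r3 and Fbxo17 were among the list members that rose, and 0 lists held one that fell. The plot of list medians shows that the experiments disagree most for class II genes and the histones.

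**Figure D5:**
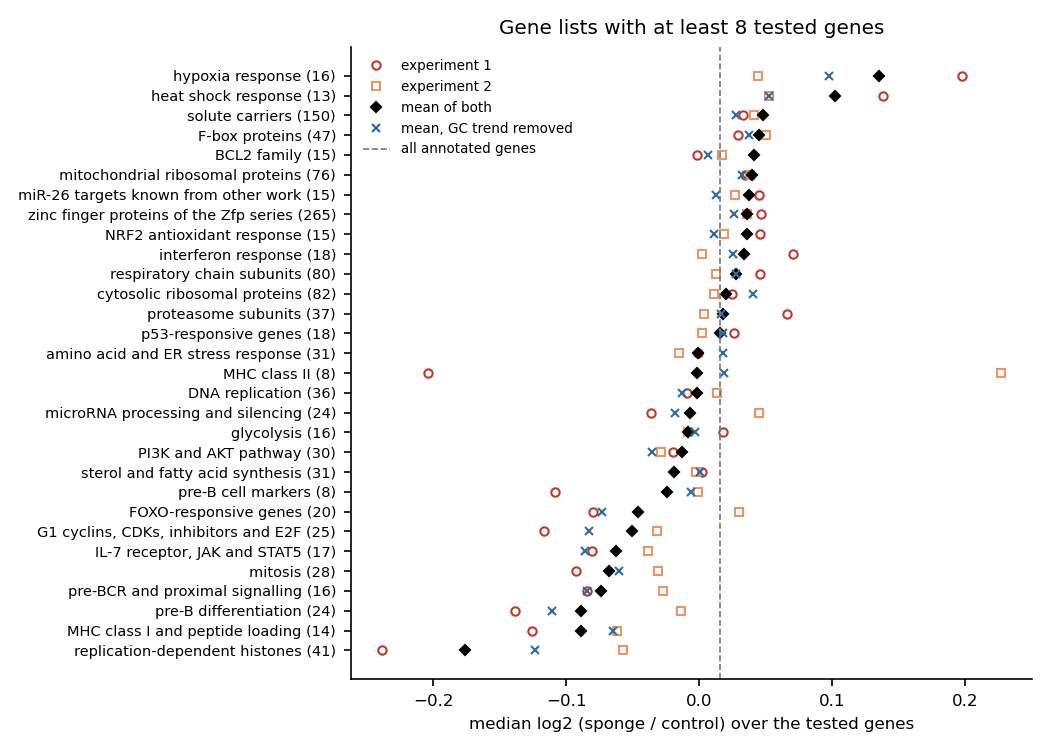
Median log2 ratio of sponge to control (x axis) for gene lists with at least 8 tested genes (y axis, number of genes in parentheses). Red circles and orange squares are experiments 1 and 2, black diamonds the mean of both and blue crosses the mean without the GC trend, with the dashed line at the median of all annotated genes, 0.02; medians of the mean run from -0.18 for histones to 0.13 for the hypoxia response.

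The arrays fit pre-B cells in their markers. All 8 pre-B cell markers were tested, among them Cd79b, Ebf1 and Vpreb1, and their summed signal was 442812 and 472446 with the control vector and 433682 and 483437 with the sponge. None of the 4 erythroid and 5 stromal markers was tested, with summed signals of at most 48.7 and 38.5. Of 5 T cell markers, Cd4 and Cd3e were tested and measured -0.32 and -0.29 (adjusted p = 0.111 and 0.140), and the summed signal of the list was 1407 and 1383 in the controls and 1067 and 1201 with the sponge. In bulk RNA, fewer cells of a type and less RNA per cell cannot be told apart. Of 10 myeloid markers 3 were tested. Csf1r, the receptor for a macrophage growth factor, read 8.18 and 7.95 in the controls and 7.21 and 7.53 with the sponge (-0.69, adjusted p = 0.0614). Cd68 differed by 0.14 (adjusted p = 0.374, limma) and Itgam, by a repetitive probe, by -0.13 (adjusted p = 0.439, limma). Lyz1, Lyz2 and Mpo were too dim to test. Of 8 mast cell and basophil genes, Fcer1g measured 0.41 and Il5ra 0.38 (adjusted p = 0.0638 and 0.0724, limma). Cpa3, Fcer1a, Gata2, Kit, Mcpt8 and Ms4a2 were too dim to test. The summed signals of the list were 227 and 232 in the controls and 296 and 302 with the sponge. The part of other cell types in any of these differences was not tested.

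Some probes were bright enough in 1 group only. With the sponge, 86 probes passed the limits on both arrays without passing them on either control array, 60 of them with a gene name, and with the control vector 73 did so, 31 with a gene name. Only 5 of the 86 and 1 of the 73 were well above background on neither array of the other group. By signal, the 5 brightest named ones with the sponge were Olfr324, Vmn1r27, 1110032F04Rik, Vmn1r6 and Gpd1, of which the 3 receptors are given above. Gpd1, a glycerol phosphate dehydrogenase, read 5.60 and 5.35 in the controls and 6.20 and 6.17 with the sponge. 1110032F04Rik read 5.44 and 5.38 in the controls and 6.65 and 6.21 with the sponge. Such probes are chosen by the group in which they are bright, so their differences are given without a test.

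On the control side the brightest included Bhlha9, Zfp36l3, Gm1070 and Ttc30a1. Bhlha9, a factor of limb development, read 6.61 and 6.47 in the controls and 5.33 and 5.44 with the sponge, a difference of -1.16. Zfp36l3, of a family that binds AU-rich RNA, differed by -0.82, Ttc30a1, of the ciliary transport machinery, by -0.71 and Gm1070 by -0.98. For these 4 both sponge arrays were still well above background.

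Looser limits, an unadjusted p under 0.1 together with 1.2-fold, give a wider view in which each gene is counted once, by its brightest probe. There, 439 annotated genes were higher (4.01%) and 460 lower (4.2%), so both directions held similar numbers. With scaling to the 75th percentile, 684 genes were higher and 383 lower. At the adjusted threshold, 14 genes rose (0.128%) and 30 fell (0.274%) when counted in that way.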

How the data were processed

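Total RNA of the 6 cultures was labelled with Cy3 and hybridised to single-colour Agilent G3 mouse 8 x 60K arrays, 100 ng per sample. All 6 arrays lay on 1 slide, with the arrays of each experiment in a slide column of their own, so experiment and column cannot be told apart. For every array the authors deposited a scanner file (Feature Extraction 10.7.1.1, per the submitters' processing notes) that gives the intensity per spot as mean, background and processed signal, with detection flags. They also deposited a table of quantile-normalised intensity values for all 6 arrays on a linear scale, of which log2 was taken here. The quartiles of its 6 columns are equal, and on the log2 scale each column tracks the processed signal of its array (r = 1.00). From 29.6% to 33.6% of spots per array held the lowest value the scanner software gives. Replicate spots of a probe had a median SD of 0.06 to 0.07 on the log2 scale. The array design supplied gene names and coordinates (mm9). No per-sample column was left unassigned.

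Control spots were left out, spots with an outlier flag too unless a probe had no other. A probe was tested when well above background and with a processed signal above 50 on all 4 arrays of the comparison. limma (version 3.58.1, R 4.3.3) was fitted to those 4 arrays with the experiment number as a block and empirical Bayes moderation, two-sided, with Benjamini-Hochberg adjustment over all 19580 probes. The fit was tested on simulated data. The pairing comes from the labels and the methods, which describe separate clones for each repetition and scale to the control of each experiment. Deviations from the group mean ran together in arrays with 1 number (correlation 0.594 between control and sponge, 0.404 between control and miR-26a, 0.467 between miR-26a and sponge). The control arrays' titles point to an earlier record, so their pairing rests on these words. The adjusted threshold was 0.05. With 2 arrays per group, the limma p-values rest mostly on a spread pooled over probes, and less on each probe's own spread between experiments. The moderated fit had 1 residual and 6.92 prior degrees of freedom.

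A gene of a list was represented by its brightest probe. Named are the 15 largest rises and 15 largest falls among annotated probes past the adjusted threshold, the 10 genes of largest rise and fall at an unadjusted p under 0.05, the 3 members with the smallest p of every list (all members where at most 5 were tested), the 3 highest and 3 lowest probes with a seed match, and the 5 brightest annotated probes of 1 group only. Some genes that this rule names are not reported here. Lst1, Igsf9b and probes without a gene name were chosen after their values were seen, as were the match to the complement of miR-26a, the repetitive probes and the probes of equal sequence. The comparison and the gene lists were chosen with earlier results of these data known. The GC trend was removed by loess (span 0.5) on the difference. Alternatives covered the block, the samples of the fit, and the source, scaling and background correction of the values. They also covered the filter on dim probes, the moderation, array weights, a t-test of log ratios and leaving out each array. Tables were handled in Python 3.11.15 with pandas 2.3.3 and numpy 2.4.6, and plots drawn with matplotlib 3.10.9.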

Additional observations from a re-analysis of the deposited data

How the results depend on the processing

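Counts past the adjusted p of 0.05 changed with almost every setting, and the cause was not tested. Where 29 probes rose and 63 fell, the numbers were 1 and 0 without the replicate block, and 2 and 1 with all 6 arrays in the fit. By a t-test of the log ratios, 738 were higher and 691 lower at an unadjusted p under 0.05. After Benjamini-Hochberg the numbers by that test were 0 and 0. They were 12 and 22 from the scanner signals, 316 and 413 with scaling to the 75th percentile, and 37 and 138 after normexp background correction. They were 0 and 0 without a filter on dim probes and with the filter on background alone (limma, 1629 higher and 1789 lower unadjusted), 119 and 260 above a signal of 100, 37 and 35 when detection in 1 group sufficed, 8 and 9 without the GC trend, and 505 and 807 with an intensity trend in the moderation. Array weights left them at 29 and 63. Without each array in turn they ran from 0 to 2 in both directions, fitted with the block over the remaining 5 arrays of the series, which assumes that the lone array varies like the other groups. Without the block, Bbs1 alone stayed past the threshold.

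At the looser limits, 439 genes were higher and 460 lower. The higher ones numbered 277 without the replicate block, 137 by t-test, 684 with scaling to the 75th percentile (383 lower) and 226 after normexp. Both directions gave 137 and 151 by t-test, 1169 and 1171 without a filter, and 743 and 702 with the background filter alone. Leaving out arrays gave 354 to 920 higher and 396 to 798 lower.

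Of 2462 values for the 146 named probes, 1970 kept their direction and side of the threshold, 339 lost and 134 gained it, and 19 changed sign. With 75th percentile scaling Ctdspl measured 0.0361 and Ctdsp1 0.0578. Ctdsp1 measured 0.0236 after normexp and 0.0602 without the GC trend, where Ighmbp2 measured -0.0492. Over the fits without 1 array, Ctdsp1 ran from -0.10 to 0.0861, Ctdsp2 from -0.21 to 0.0018, Ighmbp2 from -0.0302 to 0.0388, Ighv14-2 from -0.10 to 0.0116, Lat from -0.0328 to 0.0947, Blnk from -0.0066 to 0.22, Prdm1 from -0.15 to 0.0193, H2-Oa from -0.33 to 0.0677, H2-Aa from -0.36 to 0.71, H2-DMb1 from -0.11 to 0.56 and Pura from -0.0052 to 1.72. Of 645 values for list medians, 519 moved by less than the spread between replicates and 126 by more. Dim probes, of which those at the scanner's floor made up 29.6% to 33.6% of the spots of an array, carry no measured difference.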
